A study of Mus musculus with 14 samples.

Results

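The mouse genes for collagen α chains were followed across the study's raw count table, from the chains of the stromal fibrils to those of the basement membranes. The members were the protein-coding genes whose symbol is Col, a number, the letter a and a number, and 44 of the 42687 genes in the table met this rule. They were sorted by the structure of their protein into 11 fibrillar, 6 basement membrane (type IV), 2 type VIII, 1 type X, 9 FACIT, 6 beaded filament (type VI), 1 anchoring fibril (type VII), 2 multiplexin, 4 transmembrane and 2 other genes. RNA was sequenced from retinal pigment epithelium (RPE), the pigmented monolayer between the photoreceptors and the choroid, of 3-month-old C57BL/6J mice. In the KO mice, Best1-Cre+/-;Clic4f/f, Cre driven by the Best1 promoter removed Clic4, a chloride intracellular channel family gene, from RPE cells. The study compared each of 3 kinds of control with its own KO mice, taken here as a set. The sets were 3 WT and 3 KO libraries, 2 Ctrl (Clic4f/f, with no Cre) and 2 KO libraries, and 2 CreCtrl (Best1-Cre+/-, with no floxed Clic4) and 2 KO libraries. The labels do not say whether a set was sequenced together. The KO libraries were placed in a set by the style of their titles, so the kind of control and the set cannot be told apart. The cells were shaken off trypsin-treated cups of RPE, choroid and sclera, with both eyes of a mouse in 1 sample and no sort described, so other cells of the eye could enter a library, and in such bulk samples fewer cells of a type and less RNA per cell cannot be told apart.

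Collagens are secreted proteins whose chains wind into triple helices. Fibrillar collagens (types I, II, III, V, XI, XXIV and XXVII) build the banded fibrils of stroma, FACIT collagens sit on fibril surfaces, and type VI forms beaded microfilaments around cells. Type IV collagen is the network of every basement membrane: the chains encoded by Col4a1 and Col4a2 form the common network, and those of Col4a3, Col4a4 and Col4a5 a second network found in a few epithelia, kidney glomerulus included. The RPE rests on Bruch's membrane, a layered sheet made of the basement membranes of the RPE and of the choroidal capillaries with collagenous and elastic layers between them. Type VIII is a short-chain network collagen best known from the basement membrane of the corneal endothelium, and type XVIII is a basement membrane collagen that carries sugar chains and holds endostatin at its end.

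The sequence just upstream of the annotated start is shown for members called higher or lower in KO and for a gene pair with a shared start region. Sequences are from RefSeq (GRCm38.p6), 5′ to 3′ on the strand of the gene, trimmed where an annotated exon begins, with 35 of the 44 members having such a window. Capitals mark 6 short motifs searched on both strands: the GC box GGGCGG, the box spelled CCAAT, the TATA element TATAAA, the homeobox element TAATCC, the E-box spelled CATGTG and the other E-box CACGTG, of which the GC box and TATAAA were added after the data were seen. Col8a1 (minus strand, chr16:57754738-57754987), Col8a2 (plus strand, chr4:126286544-126286792) and Col18a1 (minus strand, chr10:77166549-77166780, the longer transcripts) were called higher in KO, the type VIII pair against WT and CreCtrl and Col18a1 against WT alone. Col3a1 (plus strand, chr1:45311288-45311537) and Col6a3 (minus strand, chr1:90843972-90844221) were called lower in KO against WT and CreCtrl. The last run is the whole 71 bp between the first exons of Col4a4 (minus strand) and Col4a3 (plus strand), chr1:82586850-82586920, written on the strand of Col4a4.
Col8a1: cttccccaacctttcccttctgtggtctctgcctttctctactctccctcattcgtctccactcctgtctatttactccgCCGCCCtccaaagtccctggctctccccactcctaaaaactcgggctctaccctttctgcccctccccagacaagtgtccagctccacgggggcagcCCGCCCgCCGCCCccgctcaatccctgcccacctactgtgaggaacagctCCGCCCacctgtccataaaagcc
Col8a2: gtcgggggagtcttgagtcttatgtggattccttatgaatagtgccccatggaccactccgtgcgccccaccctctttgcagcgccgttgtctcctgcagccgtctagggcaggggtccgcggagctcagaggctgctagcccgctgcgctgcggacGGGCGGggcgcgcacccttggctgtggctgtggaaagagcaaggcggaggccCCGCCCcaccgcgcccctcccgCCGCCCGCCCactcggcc
Col18a1: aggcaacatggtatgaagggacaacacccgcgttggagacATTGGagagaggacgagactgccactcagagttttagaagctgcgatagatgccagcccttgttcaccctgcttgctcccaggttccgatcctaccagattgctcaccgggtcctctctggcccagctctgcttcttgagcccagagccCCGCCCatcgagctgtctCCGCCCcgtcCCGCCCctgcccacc
Col3a1: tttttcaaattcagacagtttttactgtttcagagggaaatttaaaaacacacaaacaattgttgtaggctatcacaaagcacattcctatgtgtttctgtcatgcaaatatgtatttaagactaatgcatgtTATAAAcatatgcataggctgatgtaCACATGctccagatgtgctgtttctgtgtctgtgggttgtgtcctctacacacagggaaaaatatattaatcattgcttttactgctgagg
Col6a3: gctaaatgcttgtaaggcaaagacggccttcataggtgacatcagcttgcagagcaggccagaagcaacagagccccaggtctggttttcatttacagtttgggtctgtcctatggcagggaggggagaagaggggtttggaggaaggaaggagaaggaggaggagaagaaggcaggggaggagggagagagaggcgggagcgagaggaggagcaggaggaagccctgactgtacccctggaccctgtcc
Col4a4: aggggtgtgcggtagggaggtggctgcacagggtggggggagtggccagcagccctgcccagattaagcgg
The runs of Col8a1 and Col8a2 held 4 GC boxes each and that of Col18a1 held 3, the last pair of Col8a2 overlapping by 2 bases, and those of Col3a1, Col6a3 and Col4a4 held none. That of Col18a1 also held the CCAAT box on the opposite strand. That of Col3a1 held the TATA element, and the first E-box on the opposite strand. Over full 250-base windows, the GC box was in 22 of 38 member windows (57.9%) and in 32.7% of all 32851 windows, and CCAAT in 13 (34.2%) and 33.8%. The TATA element was in 5 (13.2%) and 12.4%, and the first E-box in 3 (7.89%) and 12.3%. The second E-box and the homeobox element were in 0 member windows, and in 6.02% and 6.25% of all. A match is a string of letters in this window and was not tied to the levels. The members shown were picked, and motifs were not counted by direction of change over the member windows. The runs thus cannot show whether a motif goes with a direction.

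The libraries held 9828293 to 32384166 counts, the WT libraries being the shallowest at 9828293 to 12363580. Levels are CPM, counts scaled to a common library total with TMM factors over all 14 libraries, and fold changes are from a fit within each set. Clic4 was at 226, 229.7 and 218 CPM in WT against 33.1, 23.3 and 17.9 in their KO, 71.4 and 62.1 against 9.78 and 33.9 in the Ctrl set, and 86.5 and 108 against 13.7 and 30.5 in the CreCtrl set, below its controls in every KO library. The tissue label held: 10 RPE markers (Rpe65, Rgr, Lrat and others) summed to 16558 to 24078 CPM in WT, 48249 to 48304 in Ctrl, 51248 to 59298 in CreCtrl and 73979 to 85000 CPM across the 7 KO libraries. The sum was thus lowest in WT and highest in KO. Of the 10 markers, 9 were called higher against WT, 1 against CreCtrl and 0 against Ctrl, beside 16.1%, 3.60% and 0% of all genes. The same libraries differed in other cells: 10 fibroblast markers (Dcn, Lum, Pdgfra and others, no collagen among them) summed to 4138 to 4532 CPM in WT, 1154 to 1821 in Ctrl, 960.1 to 1638 in CreCtrl and 241 to 566 in KO. Endothelial markers summed to 328 to 756 CPM in WT, 134 to 138 in Ctrl, 278 to 468.7 in CreCtrl and 34.1 to 152 in KO, and pericyte and smooth muscle markers to 2334 to 2449, 577 to 893, 548 to 788 and 311 to 491 CPM. The latter went both ways, with 6 of 8 called lower and 1 higher in the pooled fit, beside 19.6% and 21.0% of all genes. Rgs5 was at 1534 to 1844 CPM in WT and 31.5 to 83.7 in their KO. Acta2 was at 78.0 to 201 and 216 to 258 CPM, and Cspg4 at 62.7 to 71.3 and 74.7 to 86.1 CPM. Of 8 macrophage markers, 7 were called lower against WT and 7 against CreCtrl, beside 19.0% and 12.2% of all genes. C1qa was at 178 to 240.0 CPM in WT and 8.76 to 27.2 in their KO, while Csf1r was called higher against WT. The sum was 1035 to 1307 CPM in WT, 633 to 939 in Ctrl, 726 to 800.0 in CreCtrl and 751 to 1267 in KO. In KO replicate 2 of the Ctrl set C1qa was at 146 CPM and Cd68 at 195. The other KO libraries had 5.33 to 27.2 and 9.73 to 19.9 CPM. Csf1r was at 695 CPM in the former and 712 to 836 in the latter. Rod markers summed to 59.99 to 1461 CPM in WT, 545 to 2074 in Ctrl, 1189 to 4804 in CreCtrl and 406 to 2132 in KO. Of these 8 markers, 7 were called lower against CreCtrl and 1 higher against WT, beside 12.2% and 16.1% of all genes. The part of these cells in the collagen levels was not tested. Ctrl replicate 2 stood apart: 8 markers of surface epithelium, chosen after the data were seen, summed to 13058 CPM there, 2399 in Ctrl replicate 1 and 100.4 to 1097 in the other 12 libraries.

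Most measured collagen genes were lower in KO, and those that were higher were few and abundant. Against WT, 39 of the 44 members passed the low-count filter, 22 fell and 5 rose at an adjusted p under 0.05, where 19.0% of all 15428 genes tested fell and 16.1% rose. Against CreCtrl, 38 were tested, 20 fell and 2 rose, against 12.2% and 3.60% of all 15963 genes. Over 7 KO and 7 control libraries with the set as a covariate, 35 were tested, 19 fell and 3 rose, against 19.6% and 21.0% of all 14925 genes. The median log2 fold change was -2.50 against WT, -1.94 against CreCtrl and -1.94 in the pooled fit, beside -0.08, -0.02 and 0.01 over all genes tested.

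The Ctrl set called no collagen: 35 members were tested, edgeR called 0, as it called 0% of all 15287 genes, and 19 of the 35 had an unadjusted p under 0.05, beside 12.1% of all genes. The median of these 35 log2 fold changes was -2.36, beside 0.01 over all genes. DESeq2 called 17 members lower and 0 higher in that set, where it called 7.16% of the tested genes lower and 0.111% higher. Without Ctrl replicate 2, edgeR called 1 member lower in the Ctrl set, beside 0.163% of all genes, and 21 lower and 3 higher in the pooled fit, beside 22.1% and 22.4%. Of 24 members called elsewhere and tested in the Ctrl set, 14 moved by over 1.5 times when a library was left out, 9 of them most without KO replicate 2 and 5 most without Ctrl replicate 1. The log2 fold change against Ctrl then ranged from -4.88 to -1.86 for Col1a1, from -4.52 to -2.09 for Col3a1, from -3.99 to -1.30 for Col6a2, from -5.18 to -3.06 for Col12a1 and from -5.94 to -1.74 for Col10a1. Of 37 members with a mean of at least 10 counts, 27 had both KO libraries below both Ctrl libraries and 2 above, against 23.0% and 18.0% of the 15552 genes with such counts. In all 3 sets at once, 20 of the 37 lay below their controls and 1, Col8a2, above, where 10.5% and 8.90% of those genes did.

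The WT and CreCtrl sets share no library. The 19 genes called lower in both made up 86.4% of those called against WT and 95.0% of those called against CreCtrl, and all 19 were called in the pooled fit. In a fit of all 14 libraries, where 3.99% of all genes were called against CreCtrl, the CreCtrl calls of Col5a1, Col15a1 and Col13a1 among them were lost (adjusted p = 0.056, 0.076 and 0.11), at log2 fold changes of -2.34, -2.12 and -3.48. The 19 were Col1a1, Col1a2, Col3a1, Col5a1, Col5a2, Col5a3, Col11a1, Col27a1, Col4a1, Col4a2, Col6a1, Col6a2, Col6a3, Col10a1, Col12a1, Col14a1, Col16a1, Col13a1 and Col15a1. Col8a1 and Col8a2 were called higher in both, 40.0% of those called against WT and 100% of those against CreCtrl. How many of all genes were called the same way in both sets was not counted, so the overlap cannot be read as particular to collagens. Of the 10 fibroblast markers, 10 were called lower against WT and 7 against CreCtrl, beside 19.0% and 12.2% of all genes.

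**Figure D1:**
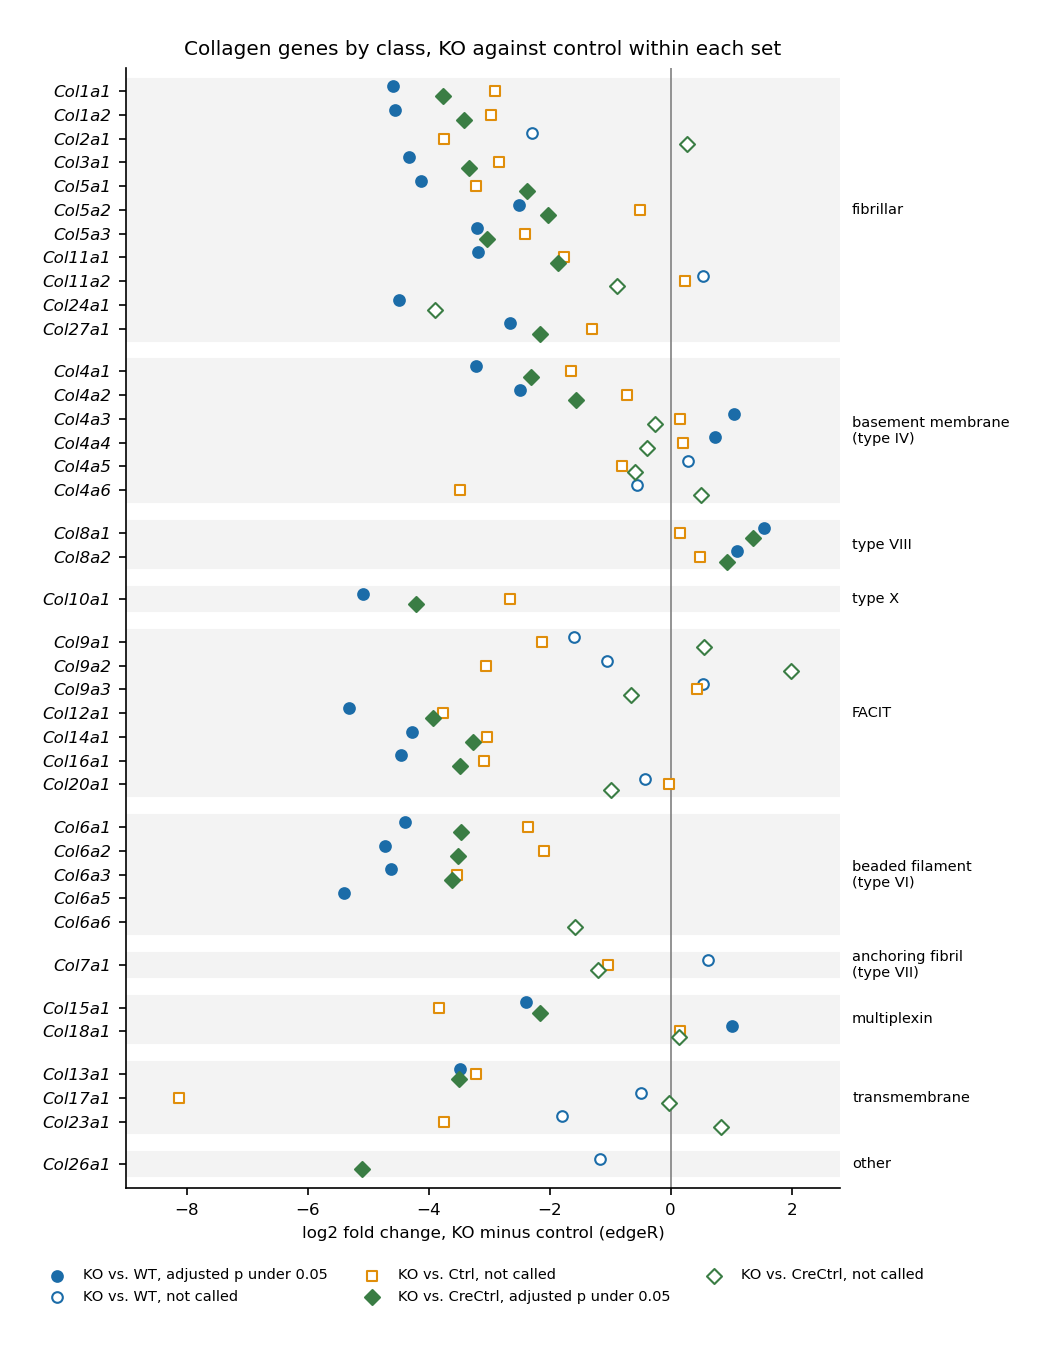
Log2 fold change of each tested collagen gene, KO minus control (x axis), by class (rows), for the WT set (circles), the Ctrl set (squares) and the CreCtrl set (diamonds); filled symbols had an adjusted p under 0.05, and Col6a6 against WT, with every KO library at 0, is not drawn. Type VIII lies right of 0 in all 3 sets, while type VI, type X and most fibrillar genes lie left of it.

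Of the 11 fibrillar genes, 9 fell against WT and 8 against CreCtrl, with class medians of -3.20 and -2.38 on the log2 scale, and none rose. Col1a1, which encodes the main chain of type I collagen, was at 1195, 1135 and 1393 CPM in WT against 104, 34.9 and 32.7 CPM in their KO. Ctrl gave 286 and 92.8 CPM against 6.46 and 44.1 in their KO, and CreCtrl gave 172 and 414 against 13.8 and 30.4. No KO library reached a control of its own set. Its log2 fold change was -4.58 (SE 0.47, adjusted p = 1.7e-04) against WT (24.0-fold lower), -3.75 (SE 0.53, adjusted p = 0.0082) against CreCtrl, and -2.91 (SE 0.99, adjusted p = 0.30) against Ctrl. Col1a2, its partner chain, was at 1429.6, 1520.0 and 1654 CPM in WT against 125, 45.2 and 47.3 CPM in their KO. Ctrl gave 378 and 114.8 CPM against 14.8 and 48.2 in their KO, and CreCtrl gave 223 and 492.9 against 21.8 and 47.0. It was 23.4-fold lower against WT (adjusted p = 1.0e-04) and 10.6-fold lower against CreCtrl (adjusted p = 0.0087). Col3a1, the type III chain of pliable stroma, was at 693, 747 and 717 CPM in WT against 64.1, 27.1 and 27.1 CPM in their KO. Ctrl gave 119 and 51.7 CPM against 3.72 and 20.2 in their KO, and CreCtrl gave 114.7 and 224 against 12.9 and 21.3. Its log2 fold change was -4.33 (SE 0.36, adjusted p = 6.3e-05) against WT and -3.33 (SE 0.39, adjusted p = 0.0052) against CreCtrl. Without KO replicate 1 of the WT set the values of Col1a1 and Col1a2 against WT were -5.29 and -5.14. Against CreCtrl they were -3.02 and -2.76 without CreCtrl replicate 2, and -4.46 and -4.09 without KO replicate 2.

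Type V collagen starts fibrils: Col5a1 had a log2 fold change of -4.12 (SE 0.56, adjusted p = 7.1e-04) against WT and -2.38 (SE 0.32, adjusted p = 0.0072) against CreCtrl, and Col5a3 of -3.20 (SE 0.40, adjusted p = 4.6e-04) and -3.03 (SE 0.36, adjusted p = 0.0054). Without KO replicate 1 of the WT set the value of Col5a1 against WT was -5.09. Col5a2 was at 197, 186 and 179 CPM in WT against 36.5, 24.5 and 48.1 CPM in their KO. Ctrl gave 55.8 and 32.2 CPM against 25.6 and 36.6 in their KO, and CreCtrl gave 68.4 and 101 against 22.7 and 20.0. It fell against WT (-2.50, SE 0.24, adjusted p = 1.2e-04) and CreCtrl (-2.02, SE 0.22, adjusted p = 0.0044), but in the Ctrl set the groups overlapped. Col11a1, a type XI chain, fell 9.07-fold against WT (adjusted p = 1.7e-05) and 3.62-fold against CreCtrl (adjusted p = 0.01), and Col27a1 6.26-fold (adjusted p = 4.9e-04) and 4.48-fold (adjusted p = 0.0052). Col11a2, another type XI chain, was at 6.24, 13.0 and 13.6 CPM in WT against 13.5, 15.2 and 23.7 CPM in their KO. Ctrl gave 13.9 and 5.65 CPM against 13.0 and 9.90 in their KO, and CreCtrl gave 22.3 and 24.9 against 16.2 and 10.2. No set called it. Col24a1 was at 2.63, 3.27 and 5.62 CPM in WT and 0, 0 and 0.535 in their KO, and its call against WT (adjusted p = 0.048) was lost without any of 5 of the 6 libraries, with adjusted p = 0.084 to 0.15. Its value was -3.87 without KO replicate 1 or 2 and -8.72 without KO replicate 3, beside -4.48 with all. Col2a1 is taken up with the variable members below.

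**Figure D2:**
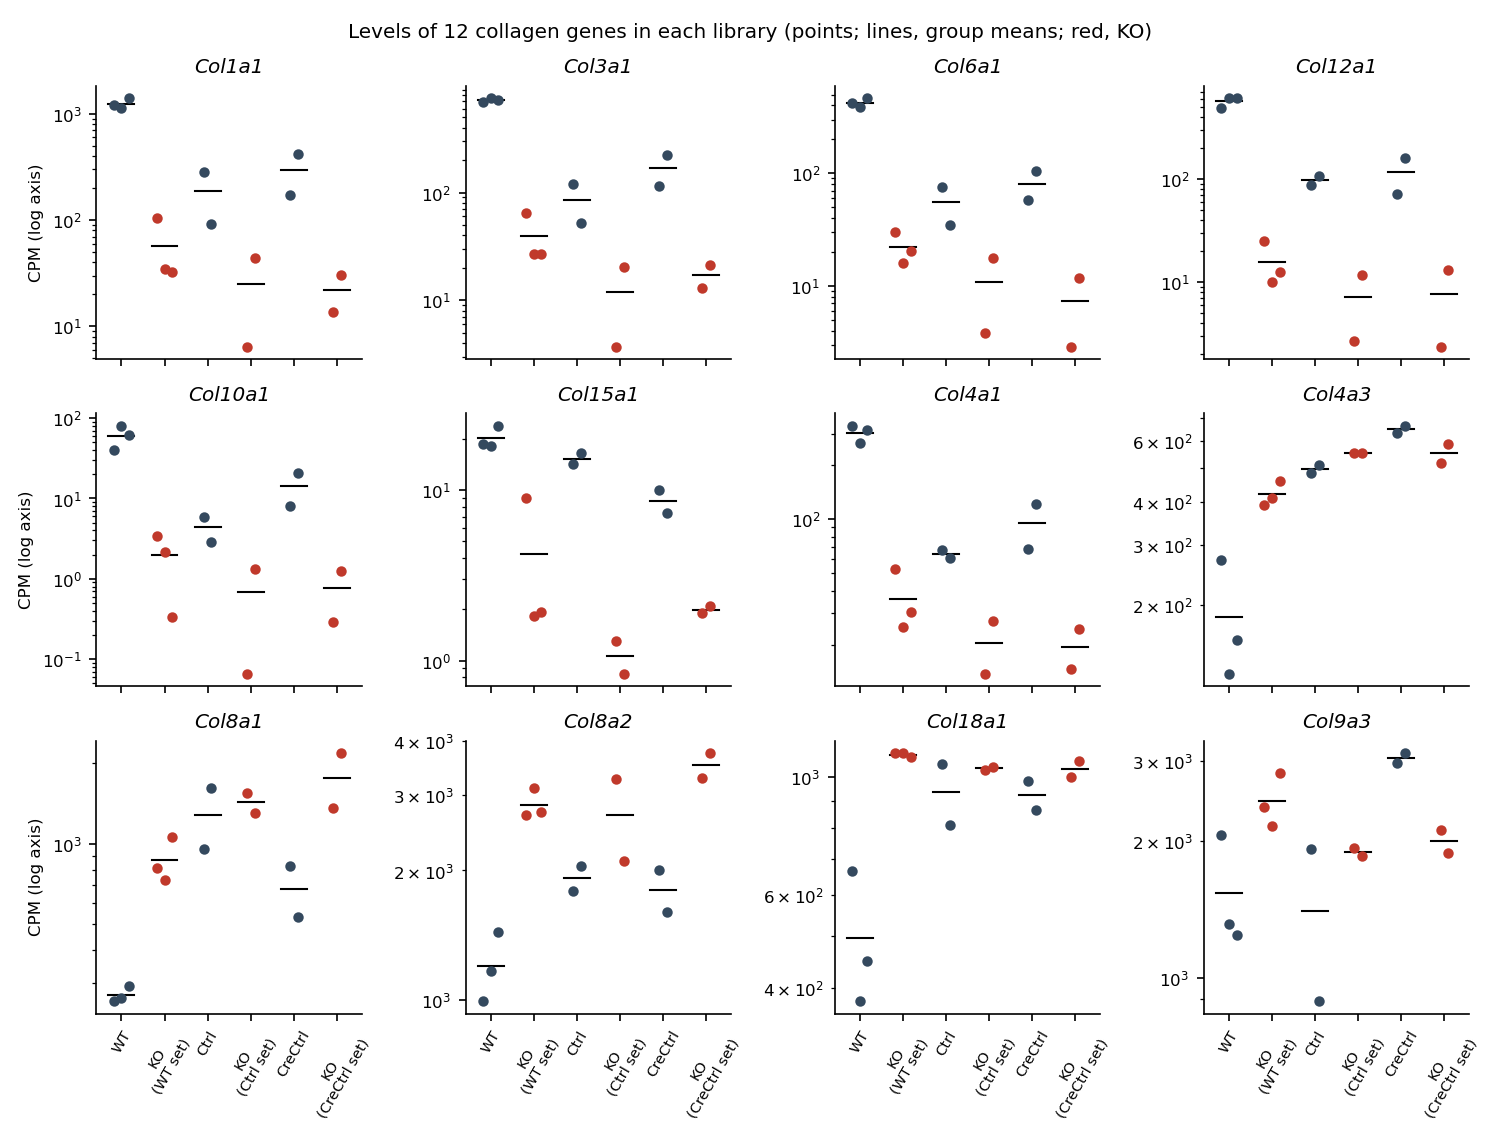
CPM on a log axis of 12 collagen genes in the 14 libraries, by group (x axis); points are libraries, dark for controls and red for KO, and lines are group means. The first 7 genes have every KO library below every control of its set, Col8a2 has the reverse, and Col9a3 has no common direction.

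All 5 type VI genes tested fell against WT, with a class median of -4.72 on the log2 scale, and 3 of 4 fell against CreCtrl. Col6a1, Col6a2 and Col6a3 encode the chains of the common type VI microfilament. Col6a1 was at 419, 391 and 462 CPM in WT against 30.3, 16.004 and 20.5 CPM in their KO. Ctrl gave 76.3 and 34.9 CPM against 3.85 and 17.8 in their KO, and CreCtrl gave 57.4 and 105 against 2.89 and 11.9. Col6a2 was at 356, 355 and 427 CPM in WT against 24.6, 9.50 and 13.6 CPM in their KO. Ctrl gave 63.3 and 32.3 CPM against 3.00 and 19.5 in their KO, and CreCtrl gave 56.1 and 109.7 against 4.42 and 10.2. Col6a3 was at 145, 138 and 151 CPM in WT against 9.46, 6.43 and 3.68 CPM in their KO. Ctrl gave 28.0 and 25.9 CPM against 1.30 and 3.34 in their KO, and CreCtrl gave 24.8 and 69.9 against 2.02 and 5.80. All 3 lay below their controls in every set, with log2 fold changes of -4.39 (SE 0.25, adjusted p = 2.3e-05), -4.72 (SE 0.34, adjusted p = 4.5e-05), and -4.62 (SE 0.30, adjusted p = 3.3e-05) against WT. Against CreCtrl the values were -3.47 (SE 0.61, adjusted p = 0.015), -3.52 (SE 0.47, adjusted p = 0.0072), and -3.60 (SE 0.63, adjusted p = 0.014). Without KO replicate 2 of the CreCtrl set they were -4.86, -4.28 and -4.59, without KO replicate 1 Col6a1 was at -2.76 and Col6a3 at -3.01, and without CreCtrl replicate 2 Col6a3 was at -2.71. Col6a6 had 2.87, 3.27 and 2.26 CPM in WT and 0 counts in all 3 of their KO libraries, at least 13.7-fold lower against a floor of 3 counts per library (adjusted p = 0.0064). Col6a5 was at 0.821, 0.774 and 2.06 CPM in WT and 0.0680, 0 and 0 in KO, and its call (adjusted p = 0.033) was lost without any of the 6 libraries (adjusted p = 0.059 to 0.12), its value being -7.09 without KO replicate 1 and -4.77 without WT replicate 3, beside -5.40.

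Among the 9 FACIT genes, Col12a1, Col14a1 and Col16a1 fell against WT and CreCtrl, and Col9a1, Col9a2, Col9a3 and Col20a1 were called in no set. Col12a1, whose long chain lies on type I fibrils, was at 491, 604 and 605 CPM in WT against 24.8, 10.1 and 12.4 CPM in their KO. Ctrl gave 86.9 and 108 CPM against 2.67 and 11.7 in their KO, and CreCtrl gave 70.7 and 161 against 2.35 and 13.0. The fall was 39.7-fold against WT (log2 -5.31, SE 0.35, adjusted p = 3.5e-05) and 15.1-fold against CreCtrl (log2 -3.92, SE 0.75, adjusted p = 0.019), the latter -5.67 on the log2 scale without KO replicate 2, -3.14 without KO replicate 1 and -3.25 without CreCtrl replicate 2. Col14a1 had log2 fold changes of -4.27 (SE 0.49, adjusted p = 3.1e-04) and -3.27 (SE 0.37, adjusted p = 0.005) against WT and CreCtrl, and Col16a1 of -4.46 (SE 0.32, adjusted p = 4.2e-05) and -3.49 (SE 0.39, adjusted p = 0.0049). Without KO replicate 1 of the WT set Col14a1 was at -5.03 against WT, and without KO replicate 2 of the CreCtrl set Col16a1 was at -4.11 against CreCtrl. Col10a1, the type X chain known from growth plate cartilage, was at 40.6, 80.4 and 61.0 CPM in WT against 3.40, 2.17 and 0.334 CPM in their KO. Ctrl gave 5.92 and 2.90 CPM against 0.0652 and 1.31 in their KO, and CreCtrl gave 7.95 and 21.0 against 0.289 and 1.25. It fell against WT (-5.09, SE 0.62, adjusted p = 4.0e-04) and CreCtrl (-4.22, SE 0.73, adjusted p = 0.014). Without KO replicate 2, KO replicate 1 or CreCtrl replicate 2 the latter was -5.66, -3.51 and -3.40, and without KO replicate 1 or 3 of the WT set the former was -5.69 and -4.49. The 8 cartilage markers summed to 375 to 435 CPM in WT, 256 to 387 in Ctrl, 205 to 222 in CreCtrl and 224 to 407 in the 7 KO libraries. Of 5 tested against WT 3 fell and 1 rose, beside 19.0% and 16.1% of all genes. Comp, a matrix protein of cartilage and tendon, was at 113 to 147.8 CPM in WT and 1.36 to 3.01 in their KO, and Chad, a cartilage matrix protein that binds cells, at 147.9 to 220 and 2.73 to 6.48 CPM. Both lay below their controls in every set, as Col10a1 did. Sox9, a transcription factor of chondrocytes and other cells, went the other way, at 80.3 to 83.9 CPM in WT and 214 to 222 in their KO. CreCtrl gave 174 and 162 CPM of Sox9 against 221 and 240 in their KO. In the Ctrl set the groups overlapped, at 220 and 365 against 256 and 403 CPM. Snorc was at 0 counts in every library, Hapln1 at 0 to 0.209 CPM and Acan at 0 to 2.24 CPM. The part of such cells in the level of Col10a1 was not tested. Col13a1, a transmembrane collagen of cell contacts, was at 10.1, 6.88 and 21.0 CPM in WT against 2.45, 0 and 1.27 CPM in their KO. Ctrl gave 4.80 and 3.94 CPM against 0.326 and 0.597 in their KO, and CreCtrl gave 5.86 and 4.70 against 0.124 and 0.799. It was called against WT (-3.48, SE 1.07, adjusted p = 0.034) and CreCtrl (-3.49, SE 0.74, adjusted p = 0.026), the former lost without any of 4 of the 6 libraries (adjusted p = 0.053 to 0.15). Its value against WT was -4.37, -2.81 and -2.89 without KO replicate 1, KO replicate 2 or WT replicate 3, and against CreCtrl -2.70 and -5.40 without KO replicate 1 or 2.

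The 6 type IV genes split. Col4a1 and Col4a2 fell in the WT and CreCtrl sets, Col4a3 and Col4a4 rose against WT alone, and Col4a5 and Col4a6 were called nowhere. Col4a1 was at 332, 264 and 316 CPM in WT against 52.4, 25.2 and 30.4 CPM in their KO. Ctrl gave 66.9 and 60.7 CPM against 13.7 and 27.1 in their KO, and CreCtrl gave 68.0 and 122 against 14.6 and 24.3. Its log2 fold changes were -3.22 (SE 0.28, adjusted p = 7.6e-05) against WT, -2.31 (SE 0.35, adjusted p = 0.0094) against CreCtrl and -1.65 (SE 0.38, adjusted p = 0.14) against Ctrl. Col4a2 was at 192, 210.0 and 202 CPM in WT against 52.2, 34.9 and 31.1 CPM in their KO. Ctrl gave 57.3 and 55.7 CPM against 21.2 and 47.1 in their KO, and CreCtrl gave 66.0 and 107 against 27.3 and 32.4. The values were -2.49 (SE 0.20, adjusted p = 5.8e-05), -1.57 (SE 0.25, adjusted p = 0.011), and -0.73 (SE 0.40, adjusted p = 0.63) in the same order. Both lay below their controls in each set. The genes start head to head on chromosome 8 with 22 bp of their exons overlapping on opposite strands, and the strand setting of the counting was not given in the sources used here.

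Col4a3 was at 269.7, 126 and 158 CPM in WT against 390.5, 410.4 and 460.3 CPM in their KO. Ctrl gave 486 and 512 CPM against 555 and 552 in their KO, and CreCtrl gave 633 and 665 against 516 and 589. The 3 WT libraries were the lowest of all 14, and the 7 KO libraries, at 390.5 to 589 CPM, lay between WT and CreCtrl. The log2 fold change was 1.05 (SE 0.26, adjusted p = 0.013) against WT, 0.15 (SE 0.23, adjusted p = 0.92) against Ctrl, and -0.26 (SE 0.18, adjusted p = 0.33) against CreCtrl. Col4a4 was at 374, 244 and 234 CPM in WT against 471, 479.8 and 616 CPM in their KO. Ctrl gave 573 and 476 CPM against 648 and 569 in their KO, and CreCtrl gave 731 and 858 against 639.9 and 597. It had 0.74 (SE 0.21, adjusted p = 0.023) against WT, 0.21 (SE 0.25, adjusted p = 0.88) against Ctrl, and -0.40 (SE 0.19, adjusted p = 0.16) against CreCtrl. The call of Col4a3 against WT was lost without WT replicate 3 (0.96, adjusted p = 0.052), and that of Col4a4 without WT replicate 2 or 3 or KO replicate 3 (adjusted p = 0.081, 0.075 and 0.058) and when scaled by library size alone (0.50, adjusted p = 0.098). Over the 14 libraries the log2 ratio of Col4a3 to Col4a4, whose first exons are 71 bp apart, ranged over 1.06, while the levels ranged over 2.40 and 1.88. Col4a5, the X-linked partner chain, was at 69.4, 33.3 and 32.2 CPM in WT against 64.9, 63.8 and 52.8 CPM in their KO. Ctrl gave 103 and 71.1 CPM against 60.7 and 39.7 in their KO, and CreCtrl gave 91.0 and 105 against 79.4 and 55.1. Per kilobase of exon the 7 KO libraries averaged 54.1 CPM for Col4a4, 49.8 for Col4a3 and 8.85 for Col4a5.

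Both type VIII genes, which encode the chains of a short-chain network collagen, rose against WT and CreCtrl. Col8a2 was at 994, 1166 and 1439 CPM in WT against 2683, 3114 and 2733 CPM in their KO. Ctrl gave 1789.9 and 2044 CPM against 3258 and 2109.6 in their KO, and CreCtrl gave 1999.9 and 1603 against 3282 and 3745. The lowest of the 7 KO libraries, at 2109.6 CPM, was above the highest of the 7 controls, at 2044 CPM. The log2 fold change was 1.10 (SE 0.17, adjusted p = 0.0012) against WT, 0.93 (SE 0.22, adjusted p = 0.037) against CreCtrl, 0.48 (SE 0.33, adjusted p = 0.73) against Ctrl, and 0.91 (SE 0.17, adjusted p = 0.0013) in the pooled fit. Col8a1 was at 256, 264 and 293 CPM in WT against 808, 734 and 1064 CPM in their KO. Ctrl gave 951 and 1622 CPM against 1553 and 1305 in their KO, and CreCtrl gave 826 and 529 against 1356 and 2187. KO libraries lay above WT and CreCtrl, but in the Ctrl set the groups overlapped, Ctrl replicate 2 being the highest of the 4. Its values were 1.54 (SE 0.17, adjusted p = 2.7e-04) against WT, 1.36 (SE 0.32, adjusted p = 0.035) against CreCtrl, 0.15 (SE 0.34, adjusted p = 0.95) against Ctrl, and 1.13 (SE 0.24, adjusted p = 0.0029) in the pooled fit. Without Ctrl replicate 1 the value in the Ctrl set was -0.17. With 2 libraries a group, the calls against CreCtrl were lost without KO replicate 2 (Col8a1 0.95, adjusted p = 0.18; Col8a2 0.81, adjusted p = 0.31), for Col8a1 also without CreCtrl replicate 2 (1.04, adjusted p = 0.062) and for Col8a2 without KO replicate 1 (1.07, adjusted p = 0.10) or with a replicate block (adjusted p = 0.099). In the pooled fit both calls held without each of the 14 libraries.

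The multiplexins, basement membrane collagens with a cleavable end, went opposite ways. Col15a1 was at 18.6, 18.1 and 23.8 CPM in WT against 8.98, 1.82 and 1.94 CPM in their KO. Ctrl gave 14.2 and 16.4 CPM against 1.30 and 0.835 in their KO, and CreCtrl gave 9.96 and 7.36 against 1.90 and 2.09. Every KO library was below its controls, with log2 fold changes of -2.39 (SE 0.62, adjusted p = 0.017) against WT, -2.15 (SE 0.34, adjusted p = 0.01) against CreCtrl and -3.83 (SE 0.47, adjusted p = 0.11) against Ctrl. KO replicate 1 of the WT set was the highest KO library, and without it the value against WT was -3.51, while the call was lost without WT replicate 3 or KO replicate 2 or 3 (adjusted p = 0.058, 0.053 and 0.053). Col18a1 was at 664, 377 and 449.5 CPM in WT against 1110.3, 1108 and 1090.5 CPM in their KO. Ctrl gave 1059 and 812 CPM against 1033 and 1047 in their KO, and CreCtrl gave 983 and 865 against 1001 and 1071. It rose against WT (1.01, SE 0.20, adjusted p = 0.0046), and differed by 0.15 against Ctrl (adjusted p = 0.93) and 0.13 against CreCtrl (adjusted p = 0.64), where the groups overlapped in the Ctrl set. Outside WT the 11 libraries lay between 812 and 1110.3 CPM. Its pooled call (0.55, SE 0.19, adjusted p = 0.032) was lost without any of 5 of the 6 libraries of the WT set (adjusted p = 0.058 to 0.092), with a replicate block (0.57, adjusted p = 0.074) and when scaled by library size alone (0.31, adjusted p = 0.17).

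Col9a3, a chain of the FACIT that coats type II fibrils, was among the most abundant collagens of every library and had no common direction. It was at 2062, 1317 and 1246 CPM in WT against 2379, 2162 and 2833 CPM in their KO. Ctrl gave 1921 and 888 CPM against 1936 and 1858 in their KO, and CreCtrl gave 2972 and 3126 against 2114 and 1882. All 3 KO libraries lay above WT (log2 0.54, SE 0.21, adjusted p = 0.084), both lay below CreCtrl (-0.65, SE 0.20, adjusted p = 0.066), and the groups overlapped in the Ctrl set. Col9a1, a partner chain, was at 88.2, 20.4 and 5.34 CPM in WT against 19.3, 16.8 and 5.28 CPM in their KO. Ctrl gave 46.2 and 5.61 CPM against 9.52 and 2.45 in their KO, and CreCtrl gave 17.3 and 3.24 against 20.4 and 11.1. An exon of Col9a3 overlaps that of Tcfl5 on the opposite strand by 234 bp.

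Another group of 5 members was called in no set and ranged widely between replicates. Col2a1, the main chain of vitreous and cartilage fibrils, the FACIT genes Col9a1 and Col9a2, the transmembrane Col23a1 and Col4a6 made up this group. Col2a1 was at 45.1, 15.7 and 7.26 CPM in WT against 7.55, 6.71 and 1.07 CPM in their KO. Ctrl gave 27.5 and 2.94 CPM against 1.63 and 0.656 in their KO, and CreCtrl gave 6.67 and 2.03 against 7.77 and 3.13. Col9a2 was at 35.0, 11.96 and 2.193 CPM in WT against 11.4, 9.36 and 5.35 CPM in their KO. Ctrl gave 43.3 and 8.10 CPM against 5.93 and 0.298 in their KO, and CreCtrl gave 6.29 and 1.33 against 20.9 and 10.8. Col2a1 and Col9a2 overlapped between WT and their KO. Col23a1 was at 130.2, 45.0 and 27.1 CPM in WT against 32.2, 26.1 and 6.28 CPM in their KO. Ctrl gave 147 and 65.4 CPM against 13.9 and 1.97 in their KO, and CreCtrl gave 36.8 and 8.19 against 54.2 and 28.8. Col4a6 was at 19.9, 14.7 and 9.46 CPM in WT against 15.1, 15.7 and 2.41 CPM in their KO. Ctrl gave 37.4 and 32.1 CPM against 5.41 and 0.835 in their KO, and CreCtrl gave 17.7 and 3.30 against 20.6 and 10.5. Their directions differed between sets: in the Ctrl set the log2 values ran from -3.75 to -2.12, and in the CreCtrl set from 0.26 to 1.98. Optc, which encodes a proteoglycan of the vitreous made by the ciliary epithelium, was at 176, 26.4 and 18.3 CPM in WT, 48.7, 32.6 and 7.82 in their KO, 255 and 56.1 in Ctrl, 29.3 and 0 in their KO, 36.6 and 2.54 in CreCtrl and 76.2 and 42.5 in their KO. Its highest 2 libraries, Ctrl replicate 1 and WT replicate 1, were also the highest 2 for Col2a1, Col9a1, Col9a2 and Col23a1. The part of tissue beside the RPE in these levels was not tested.

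Col17a1, the hemidesmosome collagen of surface epithelia, was at 0, 64.0 and 2.06 CPM in WT against 13.0, 29.2 and 9.76 CPM in their KO. Ctrl gave 84.8 and 675 CPM against 1.5 and 1.19 in their KO, and CreCtrl gave 3.72 and 0.444 against 3.22 and 1.08. Its 675 CPM in Ctrl replicate 2 came with 5062 CPM of Krt5 and 3967 CPM of Krt12, keratins of corneal and skin epithelium, against 903 and 253 CPM in Ctrl replicate 1. The log2 fold change of Col17a1 was -8.13 (SE 1.20, adjusted p = 0.11) against Ctrl, and its values against WT (-0.49) and CreCtrl (-0.03) were within their SE. The part of surface epithelium in the first was not tested.

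**Figure D3:**
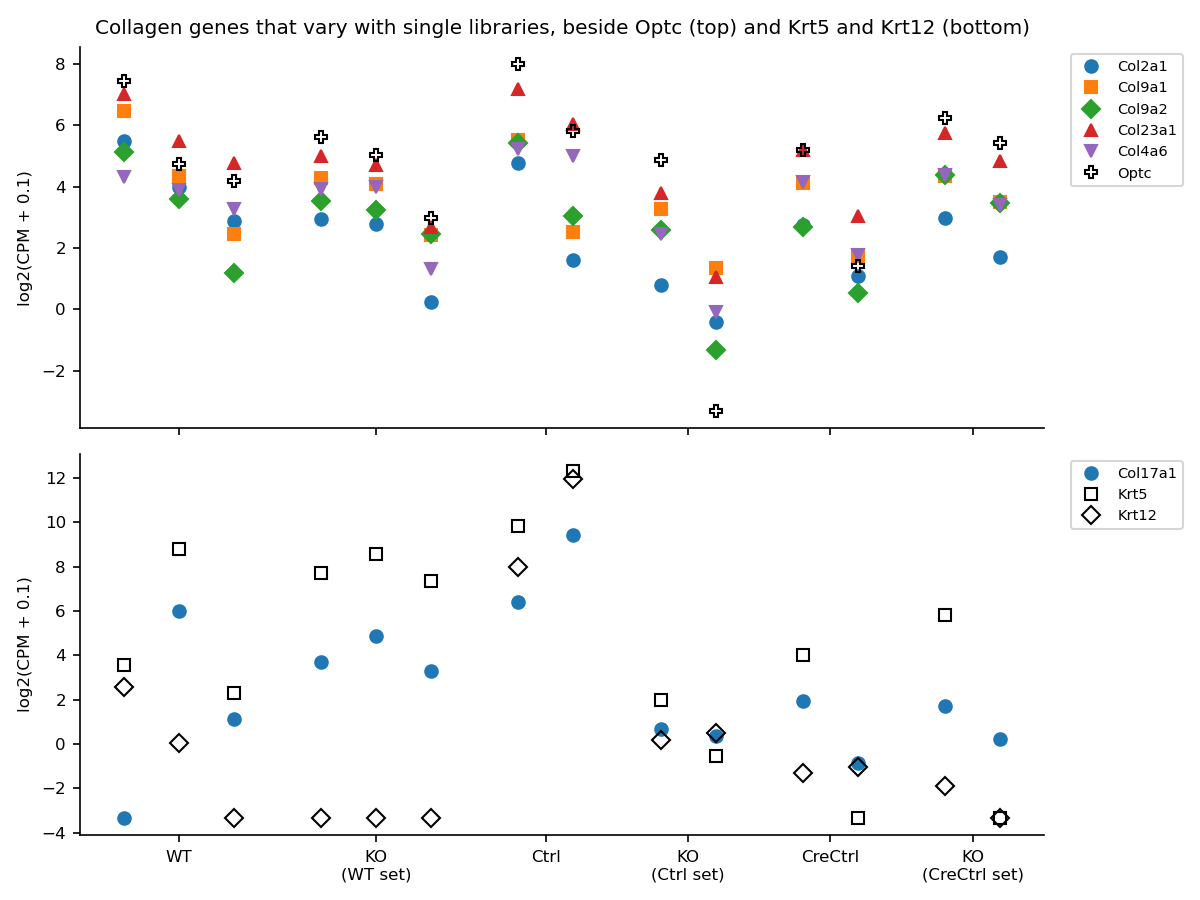
Log2(CPM + 0.1) in each library, by group (x axis), of Col2a1, Col9a1, Col9a2, Col23a1 and Col4a6 with Optc (open crosses) in the upper plot, and of Col17a1 with Krt5 (open squares) and Krt12 (open diamonds) in the lower plot. Ctrl replicate 1 has the highest Optc together with the highest Col9a2, Col23a1 and Col4a6, and the highest Col17a1, 675 CPM, is in the Ctrl library with the highest Krt5 and Krt12.

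Of the remaining members, Col7a1, the anchoring fibril chain, was at 9.93, 11.7 and 6.71 CPM in WT against 17.6, 16.1 and 14.4 CPM in their KO. Ctrl gave 15.9 and 23.0 CPM against 9.78 and 9.13 in their KO, and CreCtrl gave 18.7 and 19.8 against 12.3 and 5.11. It was above WT, below Ctrl and below CreCtrl in KO, with no call (0.62, -1.04 and -1.19, adjusted p = 0.15, 0.28 and 0.068). The FACIT Col20a1 stayed between 7.47 and 24.0 CPM in all 14 libraries. Col26a1 was called lower against CreCtrl at 0.556 and 1.08 against 0 and 0.0348 CPM (adjusted p = 0.033), a call lost without either KO library (adjusted p = 0.11 and 0.11), its log2 value of -5.10 becoming -4.33 without KO replicate 1 and -7.12 without KO replicate 2. Col19a1, Col22a1, Col25a1, Col28a1 and Col6a4 passed the filter in no set, and the highest count of any of them was 22.

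Few genes carried most of the summed collagen level. With CPM per kilobase of exon as the scale, the order of the means differed between the kinds of control. In WT it was Col9a3 at 400.1, Col8a2 at 267, Col1a1 at 189, Col1a2 at 123 and Col6a1 at 96.8, with Col18a1 at 70.8. In Ctrl it was Col8a2 at 427, Col9a3 at 365, Col8a1 at 164 and Col18a1 at 133, with Col1a1 at 28.9. In CreCtrl it was Col9a3 at 791, Col8a2 at 401, Col18a1 at 132, Col8a1 at 86.5, Col4a4 at 74.9 and Col4a3 at 65.1, with Col1a1 at 44.7. The libraries of Col8a2 and Col9a3 overlapped in Ctrl, at 399 to 455 and 231 to 499. In the 7 KO libraries the order was Col8a2 at 666, Col9a3 at 562, Col8a1 at 164, Col18a1 at 152, Col4a4 at 54.1, Col4a3 at 49.8 and Col4a5 at 8.85, with Col1a1 ranked 8 at 5.80. The summed level of all 44 overlapped between KO and control in every set, at 1665 ± 131 (SD, n = 3) in WT and 1712 ± 77.0 in their KO, 1439 ± 143 (n = 2) in Ctrl and 1577 ± 211 in their KO, and 1784 ± 23.7 in CreCtrl and 1847 ± 110 in their KO. Fibrillar genes made up 27.4% ± 2.43 of that sum in WT and 1.75% ± 0.808 in their KO, 5.05% ± 3.05 in Ctrl and 0.975% ± 0.605 in their KO, and 6.49% ± 3.03 in CreCtrl and 0.830% ± 0.0796 in their KO. Type VIII made up 18.3% ± 3.82 and 43.5% ± 3.30, 41.6% ± 11.1 and 49.1% ± 6.34, and 27.4% ± 5.37 and 54.5% ± 4.75 in the same order. The fibrillar share of every KO library was below those of its controls, and the type VIII share was above them in the WT and CreCtrl sets, with an overlap in the Ctrl set (33.8% to 49.5% and 44.6% to 53.5%). Shares are bound to sum to 100%, so a fall of a class raises the others.

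**Figure D4:**
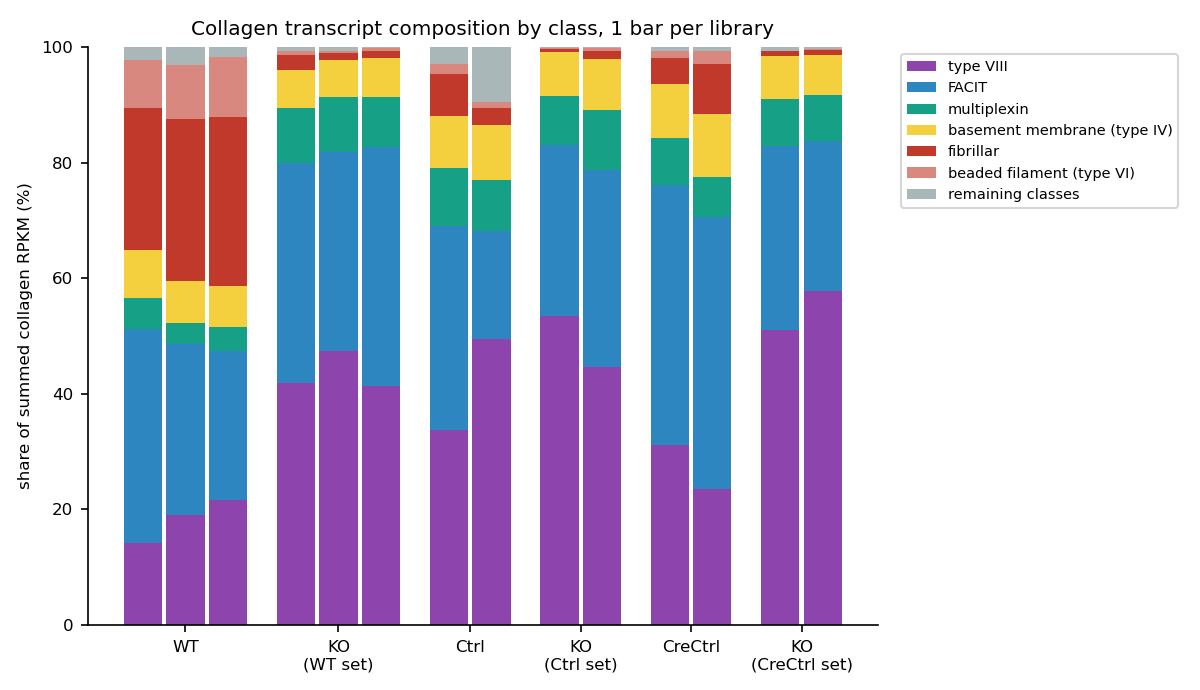
Share of the summed collagen CPM per kilobase of exon taken by each class (y axis, %), 1 stacked bar per library, grouped on the x axis. The red fibrillar band takes 24.6% to 29.3% of the WT bars and 0.547% to 2.68% of the 7 KO bars, and type VIII takes 41.3% to 57.8% of the KO bars.

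Ratios within a library do not depend on its scaling, and 5 were compared between the 7 KO and 7 control libraries by a two-sided exact permutation test within sets (720 arrangements, smallest possible p = 0.0028, adjusted over the 5). The RNA ratio of a chain of the second type IV network to a chain of the first was higher in KO. Log2 Col4a3 to Col4a1 was -0.79 ± 0.42 (SD, n = 3) in WT and 3.61 ± 0.62 in their KO. It was 2.97 ± 0.15 (n = 2) in Ctrl and 4.84 ± 0.70 in their KO, and 2.83 ± 0.54 in CreCtrl and 4.87 ± 0.39 in their KO. The mean difference was 3.00 (exact permutation p = 0.0028, adjusted p = 0.0046). Col4a4 to Col4a2 differed by 2.04 and Col18a1 to Col15a1 by 3.43, at the same exact p. In these 3, every KO library lay above every control of its set. Outside the WT set Col4a3 and Col4a4 were not called. The second genes of these ratios, Col4a1, Col4a2 and Col15a1, each lay below their controls in all 3 sets. The p-values of these 3 ratios thus largely restate those falls and are not separate results. Ratios of other gene pairs were not counted beside them. The other two ratios were of chains that assemble together. Col1a1 to Col1a2 differed by -0.22 (exact permutation p = 0.14, adjusted p = 0.17), and over the 14 libraries it ranged over 1.07 on the log2 scale while Col1a1 itself ranged over 7.75. The difference became -0.33 with an exact p of 0.014 before adjustment without KO replicate 2 of the Ctrl set. Col8a1 to Col8a2 differed by 0.22 (exact permutation p = 0.23, adjusted p = 0.23), with KO minus control of 0.41 for WT, -0.26 for Ctrl and 0.41 for CreCtrl.

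**Figure D5:**
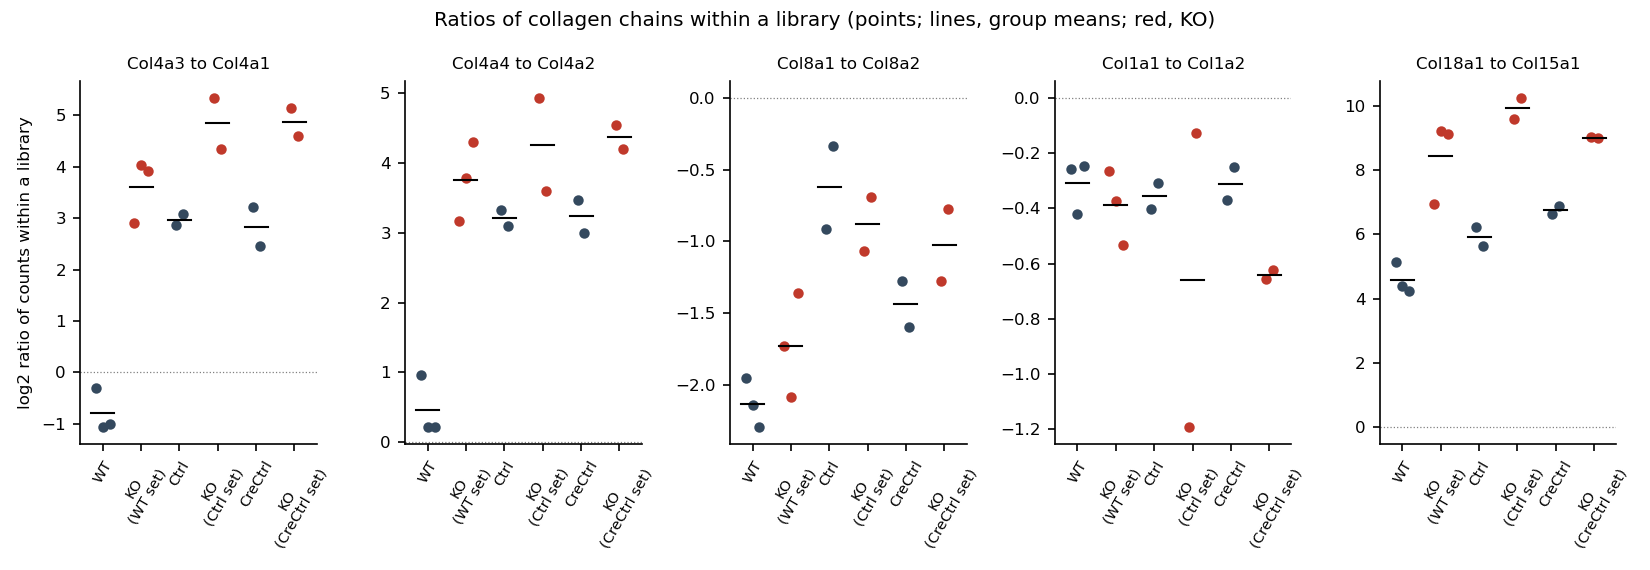
Log2 ratio of the counts of a pair of collagen genes within each library (y axis, 1 plot per pair), by group (x axis); points are libraries, dark for controls and red for KO, and lines are group means. KO libraries lie above the controls of their set for Col4a3 to Col4a1, Col4a4 to Col4a2 and Col18a1 to Col15a1, by 3.00, 2.04 and 3.43 on average.

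The changes were set beside those of the markers of the cells that could carry them. The mean log2 level of the 10 RPE markers was 1.57 higher in KO than WT, 0.57 than Ctrl and 0.48 than CreCtrl. Among these markers Best1, at 1.19 to 5.94 CPM over the 14 libraries, was lower in KO than in WT and CreCtrl (-1.82 and -1.11). It lowers the mean difference of the list in those sets and so raises the values relative to it. Relative to the 10 RPE markers, Col8a1 differed by 0.10 against WT and Col8a2 by -0.31, Col18a1 by -0.38 and Col4a3 by -0.31. KO lay below WT without overlap for Col8a2, and the groups overlapped for Col8a1, Col18a1 and Col4a3. Among the members set relative to these markers, KO lay below its controls for 3 against WT, 4 against Ctrl and 6 against CreCtrl. It lay above for 2 against CreCtrl, and the rest overlapped. Against CreCtrl, Col8a1 and Col8a2 remained higher relative to RPE markers, by 0.90 and 0.48, with no overlap of the groups, and against Ctrl they differed by -0.37 and -0.11, with overlap. Col4a5 was lower relative to RPE markers in all 3 sets, by -1.05 against WT, -1.37 against Ctrl and -1.05 against CreCtrl, without overlap. The mean log2 level of the fibroblast markers was -3.55 in KO minus WT, -2.59 against Ctrl and -2.16 against CreCtrl, the direction of the stromal collagens. Of these 10 markers, 10 were called lower against WT and 7 against CreCtrl, beside 19.0% and 12.2% of all genes. Against CreCtrl their log2 fold changes ran from -3.90 to 0.40. Fbln1 was at 117 and 85.8 CPM in CreCtrl and 169 and 102 in their KO. Values relative to the mean thus depend on the markers listed. Of 10 falling members set relative to the fibroblast markers, KO lay below its controls for 7 against WT, 1 against Ctrl and 7 against CreCtrl, above for 1, 2 and 1, and overlapped for the rest. Those 10 were only some of the falling members. Neither this count nor that relative to the RPE markers was made over all genes. Col1a1 differed by -1.10, -0.67 and -1.54 in that order and Col12a1 by -1.72, -1.51 and -2.10, both with overlap in the Ctrl set, while Col6a3 (-1.02, -1.07 and -1.43) was below its controls in each. The difference was -0.04 for Col6a1 against Ctrl and -0.15 for Col5a1 against CreCtrl, both with overlap. Col4a1 differed by 0.41, 0.87 and -0.11, with overlap against WT and CreCtrl. Col4a2 differed by 1.16, 1.76 and 0.66, above its controls in every set. Endothelial markers, with median log2 fold changes of -2.31, -2.15 and -2.53 in that order, were not used as a reference for any member. How much of each change came with the makeup of the libraries was not tested.

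Whether the KO effect differed between sets was tested in a fit of all 14 libraries. Between the WT and Ctrl sets, 3 of 41 members tested differed, where 5.15% of all 17662 genes did: the effect in the WT set minus that in the Ctrl set was -1.87 (SE 0.41, adjusted p = 0.024) for Col5a2, -1.63 (SE 0.43, adjusted p = 0.047) for Col4a2 and 1.53 (SE 0.40, adjusted p = 0.045) for Col8a1. Without Ctrl replicate 2 their adjusted p was 0.11, 0.16 and 0.28, and without KO replicate 2 of the Ctrl set it was 0.12, 0.28 and 0.17, the value of Col4a2 then being -0.92. Without KO replicate 2 of the WT set none of the 3 was called. Leaving out a library ended the call of Col5a2 for 3 of the 14, of Col4a2 for 10 and of Col8a1 for 9, and that of Col8a1 was also lost with RLE (adjusted p = 0.070) and library size scaling (adjusted p = 0.081). No member differed between the WT and CreCtrl sets (1.49% of all genes did, and 8 of the 41 members had an unadjusted p under 0.05, beside 14.9% of all genes), or between the CreCtrl and Ctrl sets (0% of all genes, and 8 members beside 8.75% at an unadjusted p under 0.05).

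Collagen chains are hydroxylated, folded and exported by dedicated enzymes and then trimmed and cross-linked outside the cell, and 37 genes of these steps and of collagen receptors were counted beside the members. Against WT, 36 were tested, 18 fell and 3 rose, beside 19.0% and 16.1% of all genes, and against CreCtrl 9 of 35 fell and 1 rose, beside 12.2% and 3.60%. Against Ctrl 0 of 35 were called, as 0% of all genes were, and in the pooled fit 16 of 34 fell and 5 rose, beside 19.6% and 21.0%. Plod2, which hydroxylates lysines at fibril ends, fell in both (-2.60, SE 0.30, adjusted p = 3.2e-04 and -2.06, SE 0.35, adjusted p = 0.014), as did Lox, the cross-linking oxidase (-3.50, SE 0.37, adjusted p = 2.0e-04 and -2.97, SE 0.55, adjusted p = 0.017). The procollagen proteinases Adamts2 (-4.01, SE 0.20, adjusted p = 2.0e-05 and -2.75, SE 0.28, adjusted p = 0.0039) and Bmp1 (-2.85, SE 0.22, adjusted p = 5.4e-05 and -1.28, SE 0.18, adjusted p = 0.0087) fell too. So did P3h3, the chaperone Fkbp10, the transcription factor Creb3l1 and the fibrillar collagen receptor Ddr2, by -2.07, -3.42, -3.77 and -3.65 against WT and -0.74, -1.49, -3.22 and -1.81 against CreCtrl (adjusted p = 0.043 or less). Tll1 fell against CreCtrl alone (-2.29, SE 0.62, adjusted p = 0.047). Against WT alone, Plod1, Colgalt1, Crtap, P3h1, P4ha1, P4ha3, Serpinh1, Fkbp14, Adamts3 and Loxl3 fell, between -4.90 and -0.49 on the log2 scale. Loxl4, a cross-linking oxidase of the same family as Lox, rose against WT (2.70, SE 0.17, adjusted p = 3.3e-05) and CreCtrl (1.04, SE 0.19, adjusted p = 0.016). The receptor Ddr1 and the export factor Mia3, which loads procollagen into carriers, rose against WT by 0.75 and 0.56 (adjusted p = 0.0011 and 0.0099). In the pooled fit alone, the prolyl hydroxylases P4ha2 (-0.85, SE 0.20, adjusted p = 0.005) and P3h2 (-1.81, SE 0.68, adjusted p = 0.046) fell, and Ppib, a prolyl isomerase of the endoplasmic reticulum (0.34, SE 0.09, adjusted p = 0.0087), and Tmem38b, an ion channel of that compartment (0.65, SE 0.16, adjusted p = 0.0063), rose.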

How the data were processed

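RNA from the RPE of 14 mice was made into stranded mRNA libraries and sequenced. Per the labels and the study's methods, the authors aligned reads to GRCm38 with STAR 2.5.2. The submitters' processing notes also name bcl2fastq 2.19, Cufflinks 2.1.1 and HTSeq 0.11.2. The deposited table used here holds raw counts per gene, whole numbers with no normalization by the authors. Its annotation release and strand setting are not given in the sources used here, so reads of overlapping genes may be shared between them.

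Gene identifiers were matched to GENCODE M21 (42329 of 42687), which gave symbols and exon lengths. Members and gene lists were chosen with earlier results of these data known. The rule for named genes was every member passing the filter in at least 1 set and the collagen-making genes called in any comparison, and those outside it are named as not tested. Surface epithelium and vitreous lists, and values relative to marker lists, were chosen after the data were seen.

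Each set was fitted with edgeR 4.0.16 (R 4.3.3, quasi-likelihood test, TMM factors, filterByExpr with a minimum count of 10), and p-values were adjusted by Benjamini-Hochberg over all genes tested, with a call at an adjusted p under 0.05. A pooled fit had set as covariate, and differences between sets were interaction terms. DESeq2 1.42.0, the study's tool, was an alternative, as were RLE and library size scaling, filters on low counts, a fold threshold of 1.5, a replicate block, 1 fit of all 14 libraries and leaving out each library. CPM were computed with TMM factors over all libraries, and divided by exon length where genes are compared. Chain ratios used counts plus 0.5. The scripts were tested on simulated data. With 2 or 3 mice a group, and depths of 9828293 to 32384166 counts, p-values rest on few samples.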

Additional observations from a re-analysis of the deposited data

Results flagged for a closer look

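Among the 35 members examined, 2 had 1 of the 7 KO libraries standing apart from the other 6 by Dixon's test. Chance alone would mark about 1 in 20 groups. Col9a2 was lowest in KO replicate 2 of the Ctrl set, at 0.298 CPM, with a gap of 0.673 of the range on the log scale. Col15a1 was highest in KO replicate 1 of the WT set, at 8.98 CPM, with a gap of 0.621.

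The KO effect differed between the WT and Ctrl sets for 3 of 41 members, beside 5.15% of all genes, by the interaction term of edgeR's fit of 14 libraries: Col5a2 (-1.87, adjusted p = 0.024), Col4a2 (-1.63, adjusted p = 0.047) and Col8a1 (1.53, adjusted p = 0.045). The kind of control and the set cannot be told apart here, and each call was lost without KO replicate 2 of the WT set (adjusted p = 0.050, 0.10 and 0.068). Over the 14 libraries left out in turn, the call was lost for 3 with Col5a2, 10 with Col4a2 and 9 with Col8a1, and that of Col8a1 was lost under RLE and library size scaling too (adjusted p = 0.070 and 0.081).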

How the results depend on the processing

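When each library was left out, 23 to 26 collagen genes were called against WT (27 with all libraries), beside 27.7% to 30.0% of all genes (35.1%). In the pooled fit 21 to 24 were called (22), beside 34.8% to 44.5% (40.6%). Against CreCtrl 22 were called, beside 15.8% of all genes, and leaving out a library leaves a lone library in its group. Under every other setting tried these counts stayed within 1.5 times. Against Ctrl, where edgeR called 0, DESeq2 called 17 (7.27% of all genes), keeping every gene with at least 1 count gave 22 (6.92%), a fit of all 14 libraries as 6 groups gave 12 (3.67%), and leaving out a library gave 0 to 2. The count differing between the WT and Ctrl sets (3) became 22 with every gene of at least 1 count (8.29% of all genes) and 0 to 5 without a library. Between the WT and CreCtrl sets (0) it became 16 with that filter (4.04%), 2 with at least 10 counts in every library, and 0 to 3 without a library, and between the CreCtrl and Ctrl sets (0) it became 10 with that filter (3.24%). The direction against Ctrl turned for Col18a1 without Ctrl replicate 2 (-0.035, range over libraries left out -0.035 to 0.37) and for Col8a1 without Ctrl replicate 1 (-0.17, range -0.17 to 0.58). The cause was not tested.

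The ratio differences of the WT, Ctrl and CreCtrl sets alone were 4.40, 1.88 and 2.04 for Col4a3 to Col4a1 and 3.29, 1.05 and 1.14 for Col4a4 to Col4a2. They were 3.99 (Ctrl) and 2.26 (CreCtrl) for Col18a1 to Col15a1, and -0.26 (Ctrl) for Col8a1 to Col8a2. Leaving out a library gave 2.82 to 3.20, 1.83 to 2.27, 3.25 to 3.69 and 0.13 to 0.32 for these pairs, and -0.33 to -0.086 for Col1a1 to Col1a2.

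Whether replicate numbers pair the libraries is not known. Deviations of same-numbered libraries correlated at -0.02, 0.07 and 0.18 among WT and their KO, where differently numbered ones gave -0.16 to 0.07. The values were -0.006 with Ctrl and 0.13 with CreCtrl. With 2 libraries a group the deviations mirror each other, so those values cannot decide it. With a replicate block the counts were 28, 0, 30 and 22 against WT, Ctrl, CreCtrl and in the pooled fit. The shares of all genes were 31.5%, 0.739%, 24.0% and 34.8%. With 2 libraries a group in the Ctrl and CreCtrl sets, leaving out 1 leaves a lone library, which was taken to vary like the other group.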
